A study of Mus musculus with 6 samples.

Results

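The genes described here are 7 mouse genes that couple NK cell type receptors to the inside of the cell or act as such receptors: the adaptors Tyrobp (DAP12), Hcst (DAP10) and Fcer1g (the Fc receptor gamma chain), the Fc receptor Fcgr3 (CD16), the NK receptors Ncr1 (NKp46) and Cd160, and the kinase Syk. They were picked by symbol, out of 34885 array probes that the platform annotation gives 1 gene symbol each. Each of the 7 had 1 such probe: ILMN_2867147 for Tyrobp, ILMN_1220418 for Hcst, ILMN_2748875 for Fcer1g, ILMN_2687403 for Fcgr3, ILMN_2747294 for Ncr1, ILMN_2707181 for Cd160 and ILMN_1252460 for Syk. A probe was tested when its detection p was under 0.05 on 3 or more of the 6 arrays, which 5 members met. Ncr1 and Syk were detected on 0 of 6 arrays and are given by their intensities only. The cells were natural killer T (NKT) cells of the thymus, T cells with a limited set of receptors for lipids held by CD1d, taken at the mature stage as CD44+ and NK1.1+ cells. RNA came from 3 samples of the strain Captain Morgan, which is deficient in DOCK8, and from 3 wild type samples, all labelled C57BL/6. DOCK8 is a guanine nucleotide exchange factor for CDC42 that shapes the actin skeleton of lymphocytes. The series text calls the DOCK8-deficient samples biological replicates without saying whether a sample was 1 animal or a pool, so each p-value reflects how far these 6 samples scatter, which may be technical. Age and sex are not given in the labels.

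Many activating receptors of NK cells have short cytoplasmic tails and signal through partner chains. DAP12 and the Fc receptor gamma chain carry an immunoreceptor tyrosine-based activation motif (ITAM), which, once phosphorylated, recruits the tandem SH2 kinases SYK and ZAP70. DAP10 carries a different tyrosine motif that binds PI3 kinase and GRB2, and it serves NKG2D. Mature NKT cells carry several receptors of NK cells besides their T cell receptor, and NK1.1, the marker used to gate these cells, signals through the Fc receptor gamma chain.

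Each array read 45281 probes, of which 16496 to 18451 were detected, and the median intensity lay between 183 and 235, lowest on the array of DOCK8-deficient sample 2. The brightest probe of Dock8 did not separate the groups, with a difference of -0.01 on the log2 scale (95% interval -0.35 to 0.33). Its dimmer probes differed by 0.37 and 0.41 (limma adjusted p = 0.594 and 0.704). The grouping therefore rests on the labels, which do not say what the mutation does to the transcript. Of 16 markers of NKT cells, 14 had a named probe and all 14 were tested, with a median difference of 0.05, 0 calls (14 did not pass) and 1 unadjusted p under 0.05 in limma. That gene was Cd5, a T cell surface protein that dampens T cell receptor signals, which was dim and detected on 3 arrays, with 6.15 ± 0.89 and 5.17 ± 0.40 on the log2 scale (SD, n = 3 each), a difference of 0.98 with overlap (limma adjusted p = 0.490). Signals below are normalised log2 values, and differences are DOCK8-deficient minus wild type on that scale, with a moderated standard error (SE), from a limma fit over all 14559 tested probes and Benjamini-Hochberg adjusted p-values over the same probes. Of these probes 0.213% (31) passed at an adjusted p under 0.05, 19 higher (0.131%) and 12 lower (0.0824%), or 29 higher and 33 lower when arrays were scaled to a common median.

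Among the members, Tyrobp stood farthest from 0. Its scanner intensities were 590, 365 and 669 on the arrays of DOCK8-deficient samples 1, 2 and 3, and 313, 408 and 395 on those of wild type samples 1, 2 and 3. These raw intensities overlapped, since DOCK8-deficient sample 2, whose whole array was dim, read below wild type samples 2 and 3. After normalisation the DOCK8-deficient samples read 8.39, 8.30 and 8.77 on the log2 scale and the wild type samples 7.26, 7.67 and 7.23. The groups then no longer overlapped, the lowest DOCK8-deficient value lying 0.63 above the highest wild type value. The means were 8.49 ± 0.25 and 7.39 ± 0.24 (SD, n = 3 each), a difference of 1.1 ± 0.19 SE or 2.14-fold (95% interval 1.59-fold to 2.89-fold). The unadjusted limma p was 3.89e-04, number 62 in rank among 14559, and the adjusted p was 0.0894, so Tyrobp did not pass the test. It passed under 4 of 14 processing alternatives, among them without background correction, where the difference was 0.61 (1.53-fold, adjusted p = 0.0167), and in the authors' deposited log2 table, at 0.91 (adjusted p = 0.0203). The share of all tested probes that passed was larger there too, at 1.06% and 0.769%, as it was with a stricter filter (0.574%) and under a prior that was trended and robust (1.31%), which complete the settings where Tyrobp passed. In a population of sorted cells, more cells carrying a transcript and more transcript per cell cannot be told apart.

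Hcst, whose product DAP10 links NKG2D to PI3 kinase, is the protein-coding gene next to Tyrobp on chromosome 7 in the RefSeq gene order. It read 12.63, 12.63 and 12.85 in the DOCK8-deficient samples and 12.76, 12.91 and 12.89 in the wild type samples. The ranges of the groups overlapped. The means were 12.70 ± 0.13 and 12.86 ± 0.08 (SD, n = 3 each), and the difference of -0.15 ± 0.13 SE had a 95% interval of -0.46 to 0.16 (limma adjusted p = 0.764). The interval for Hcst lay wholly below that for Tyrobp, 0.67 to 1.53, although the difference between these neighbouring genes was not itself tested.

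**Figure D1:**
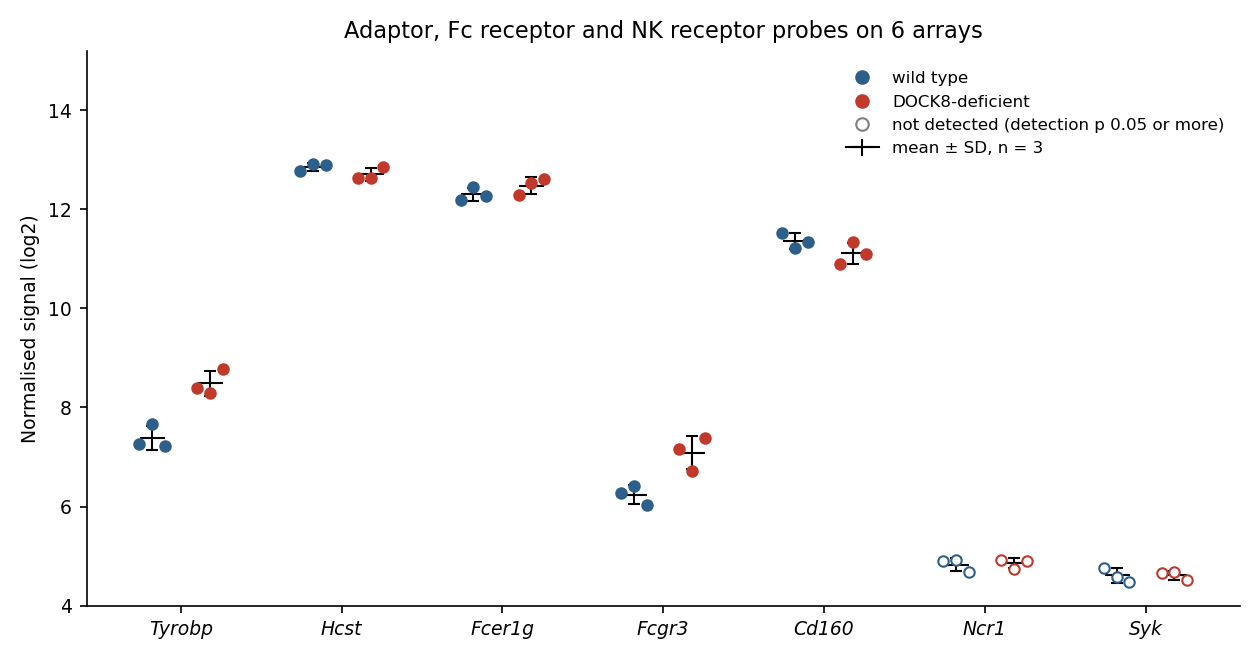
Normalised log2 signal of the 7 member probes on each of the 6 arrays, with points for samples and bars for mean ± SD (n = 3 per group); open circles are values not detected above background. Tyrobp and Fcgr3 are the members whose groups do not overlap, and Ncr1 and Syk are open on all 6 arrays.

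Fcer1g encodes the gamma chain that FcγRIII, NKp46 and NK1.1 use to reach the cell surface or to signal. Its probe read 12.28, 12.54 and 12.62 in the DOCK8-deficient samples against 12.19, 12.45 and 12.27 in wild type. Both groups covered much of the same range. The means of 12.48 ± 0.17 and 12.30 ± 0.13 (SD, n = 3 each) differed by 0.17 ± 0.15 SE (95% interval -0.17 to 0.52, limma adjusted p = 0.754). A rise by more than 1.43-fold or a fall to under 0.888 of the wild type level lay outside that interval.

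Fcgr3 encodes FcγRIII, the low-affinity receptor for IgG that lets NK and myeloid cells act on antibody-coated targets, and its alpha chain needs the gamma chain. Its probe was near background: the intensities were 358, 231 and 374 in DOCK8-deficient samples 1, 2 and 3 and 251, 289 and 285 in wild type samples 1, 2 and 3, with detection p of at most 0.0043 on every array. As for Tyrobp, the raw intensities overlapped through DOCK8-deficient sample 2. The normalised values were 7.16, 6.72 and 7.38 against 6.27, 6.42 and 6.03. Every DOCK8-deficient value then lay above every wild type value, by a gap of 0.30. The means of 7.09 ± 0.34 and 6.24 ± 0.20 (SD, n = 3 each) differed by 0.84 ± 0.20 SE, or 1.80-fold (95% interval 1.30-fold to 2.47-fold). With an unadjusted limma p of 0.00294 (number 231 in rank) and an adjusted p of 0.185, Fcgr3 did not pass, and it passed under 0 of the 14 alternatives (adjusted p from 0.0915 to 0.756). With median scaling its groups overlapped, and without background correction the difference was 0.30, or 1.23-fold. The extracellular parts of mouse FcγRIII and FcγRIIB are nearly the same in sequence, and whether this probe tells their transcripts apart was not tested, because the probe sequences were not used here.

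The sequence before the start sites is shown for Fcgr3, Fcer1g and Hcst, because the first is a member whose groups separated, the next encodes its obligatory chain and the last neighbours Tyrobp. These are the 250 bases before a start site in the RefSeq table (GRCm38.p6), which held entries for 6 of the 7 members, read 5′ to 3′ on the gene's strand. Fcgr3 has a further listed start, whose window overlaps the printed one and holds the same AGGAAG match. Capitals mark AGGAAG, a core of sites for ETS family factors, or its reverse complement.
Fcgr3, chr1:171059404-171059653, minus strand: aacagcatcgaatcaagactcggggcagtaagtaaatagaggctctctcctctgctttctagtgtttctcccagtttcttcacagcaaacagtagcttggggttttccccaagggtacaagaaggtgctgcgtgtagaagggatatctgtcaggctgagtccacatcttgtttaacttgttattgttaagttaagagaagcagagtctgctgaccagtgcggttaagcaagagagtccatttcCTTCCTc
Fcer1g, chr1:171234350-171234599, minus strand: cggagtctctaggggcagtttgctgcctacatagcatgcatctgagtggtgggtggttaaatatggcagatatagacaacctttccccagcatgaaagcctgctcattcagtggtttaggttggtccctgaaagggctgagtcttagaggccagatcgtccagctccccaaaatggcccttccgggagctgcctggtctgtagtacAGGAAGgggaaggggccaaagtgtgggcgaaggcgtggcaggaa
Hcst, chr7:30419855-30420104, minus strand: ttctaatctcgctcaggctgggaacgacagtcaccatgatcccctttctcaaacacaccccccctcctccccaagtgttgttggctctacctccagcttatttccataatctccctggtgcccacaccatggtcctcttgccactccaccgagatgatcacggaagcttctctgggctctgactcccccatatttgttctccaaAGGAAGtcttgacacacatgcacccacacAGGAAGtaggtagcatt
Searched on both strands, AGGAAG occurred in all 3 of these windows, once in Fcgr3 and in Fcer1g and at 2 places in Hcst, and in 29.5% of the 32851 windows of the same length in the table. Among the other members with an entry, AGGAAG was found in the windows of Cd160 and not in those of Ncr1 or Syk. The RUNX site letters TGTGGT, present in 14% of all windows, were found in those of Cd160 and Ncr1. They were absent from those of Fcgr3, Fcer1g, Hcst and Syk. Fcgr3, Fcer1g and Hcst share AGGAAG, while their array differences between groups were 0.84, 0.17 and -0.15. A match describes these letters and not a bound site.

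Cd160 is a glycolipid-anchored receptor of NK cells and cytotoxic T cells that binds HVEM and MHC class I. It read 10.90, 11.34 and 11.10 in the DOCK8-deficient samples and 11.52, 11.22 and 11.33 in wild type. DOCK8-deficient sample 2 read as high as wild type sample 3, and the groups overlapped. The means of 11.11 ± 0.22 and 11.36 ± 0.15 (SD, n = 3 each) differed by -0.25 ± 0.16 SE (95% interval -0.63 to 0.12, limma adjusted p = 0.665).

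The remaining pair gave no signal above background. Ncr1, the activating receptor NKp46 that defines NK cells across species, had intensities of 170 to 222 in the DOCK8-deficient samples and 206 to 225 in wild type, with detection p from 0.267 to 0.656. Syk read 167 to 194 and 194 to 205, with detection p from 0.550 to 0.954. For these genes neither a level nor a difference is given. ZAP70, the relative of SYK that serves the T cell receptor, was measured on all 6 arrays, with 12.63 ± 0.23 and 12.74 ± 0.05 (SD, n = 3 each) and a difference of -0.11 (limma adjusted p = 0.859). Other tested probes of Zap70 differed by -0.35 and -0.05, and the gene was named after its values were seen.

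Of the 5 tested members 0 passed at an adjusted p under 0.05, where 0.213% of all tested probes did, and 2 had an unadjusted limma p under 0.05, as did 10.1% of all tested probes (4.88% with the higher mean in DOCK8-deficient samples). The 2 were Tyrobp and Fcgr3, which are also the members higher in every DOCK8-deficient sample than in any wild type sample. Of all tested probes 7.97% were higher without overlap, and 15.9% were apart in either direction. No member was lower without overlap, against 7.98% of tested probes. The median difference of the 5 was 0.17, and that of all tested probes -0.01.

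**Figure D2:**
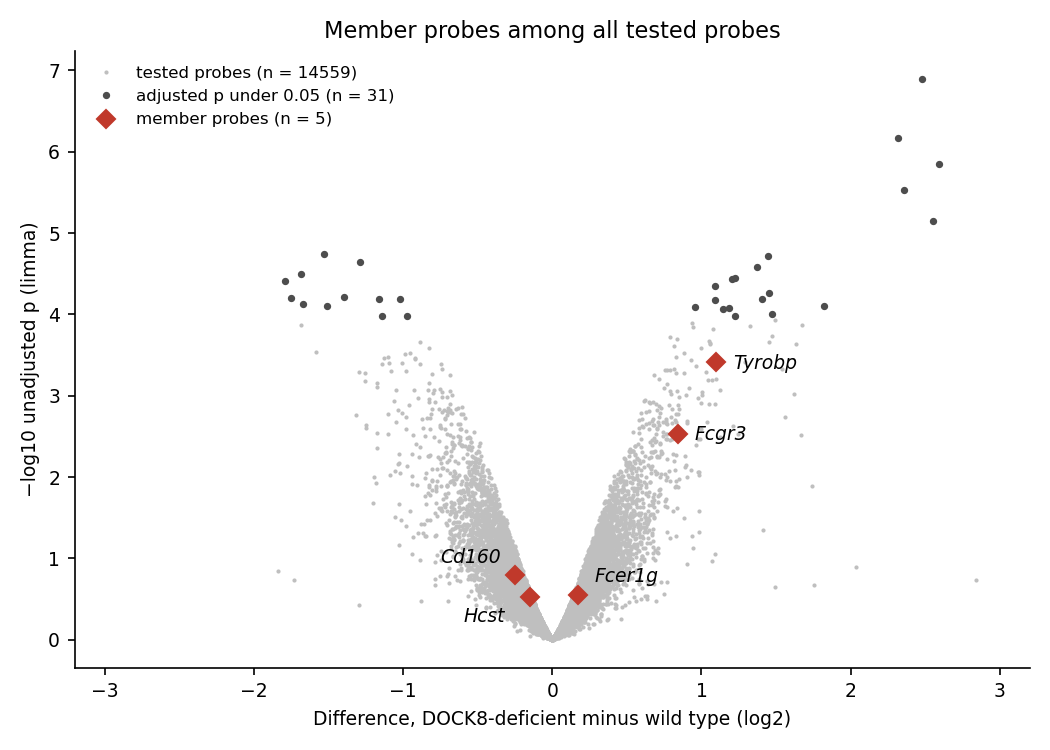
Difference between groups (x axis, log2) and unadjusted limma p (y axis, −log10) for all 14559 tested probes, with the 31 probes past the adjusted threshold in dark grey and the 5 tested members as diamonds. Tyrobp at 1.1 and Fcgr3 at 0.84 lie on the right flank below the dark points, and Fcer1g, Hcst and Cd160 lie near the middle.

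Across the 6 arrays Tyrobp and Fcgr3 ordered the samples alike, with a Pearson r of 0.96 and a Spearman rho of 1. Tyrobp and Fcer1g had an r of 0.73, and Tyrobp and Hcst -0.41. Tyrobp and Cd160 had an r of -0.71, and Fcer1g and Hcst 0.08. These values describe 6 points that share arrays and normalisation, and where groups stand apart they largely restate that. Among 11923 other probes detected on all 6 arrays, those most like Tyrobp by Pearson r were of Cables2, Anxa2, Khdc3, Oas1c and Mapk1ip1l, with r of 0.993 to 0.996. Anxa2, which encodes the membrane-binding protein annexin A2, differed by 0.83 (limma adjusted p = 0.0935) and Khdc3 by 1.13 (0.121), and the others by 0.18 to 0.51. In all 5 the groups did not overlap. The probes most like Fcer1g were of Tesc, Rilpl2, Babam2, Ndufs6 and Ap2s1, with r of 0.989 to 0.995 and differences of 0.18 to 0.39, and their groups overlapped. An r above 0.95 was reached by 92 probes (0.772%) for Tyrobp and 72 (0.604%) for Fcer1g.

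Receptors that pair with DAP12, DAP10 or the Fc receptor gamma chain, or belong to their families, lay on both sides of 0. Of 24 listed, 23 had a named probe, 8 were tested and 13 were detected on 0 arrays, among the latter the myeloid receptors Trem1, Trem2 and Clec5a and the Fc receptors Fcgr1 and Fcgr4. Over all probes 0 of the 8 passed in either direction (limma, 4 with an unadjusted p under 0.05), and the median difference was 0.16, against -0.00 over the brightest tested probe of all 9060 genes. Without overlap 2 were higher and 2 lower, where 8.61% and 8.5% of all genes were (17.1% in either direction). An unadjusted p under 0.05 was found for 10.2% of all genes, which is the share to set beside such counts here and in the lists that follow.

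Klrb1f, a lectin-like receptor of the NKR-P1 family to which NK1.1 belongs, read 10.03, 10.31 and 10.11 in the DOCK8-deficient samples and 9.54, 9.01 and 9.37 in wild type. The groups stood apart, with a difference of 0.84 ± 0.17 SE (1.80-fold, limma adjusted p = 0.141), and a further tested probe of the gene read 0.74. Klra8, which encodes the DAP12-coupled receptor Ly49H, read 8.65, 8.21 and 8.91 against 9.40, 9.55 and 9.69. Every DOCK8-deficient value lay below every wild type value, opposite to Tyrobp, and the difference was -0.96 ± 0.20 SE (1.94-fold lower, adjusted p = 0.141). Klra4, encoding Ly49D, the other DAP12-coupled Ly49 receptor listed, differed by -0.32 (adjusted p = 0.467), likewise without overlap. Klra8 had 2 named probes and Klra4 had 4, and no further probe of either passed the detection filter. Ly49 genes are close relatives, and whether their probes tell them apart was not tested.

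Klrk1, encoding NKG2D, which in the mouse uses DAP10 and DAP12, differed by 0.58 ± 0.16 SE without overlap on its brightest probe (limma adjusted p = 0.252). Its 3 further tested probes read 0.67 without overlap, and 0.47 and 0.43 with overlap. Klrd1, the CD94 chain of the NKG2 receptors, differed by -0.18, its activating partner Klrc2 by 0.29, and Klrb1c, encoding NK1.1 itself, by 0.10. Siglech, a DAP12-coupled lectin of plasmacytoid dendritic cells, differed by 0.23. Adjusted p-values of these 4 ran from 0.703 to 0.896. Values for the 6 genes other than Klrb1f and Klra8 are given to complete the list.

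**Figure D3:**
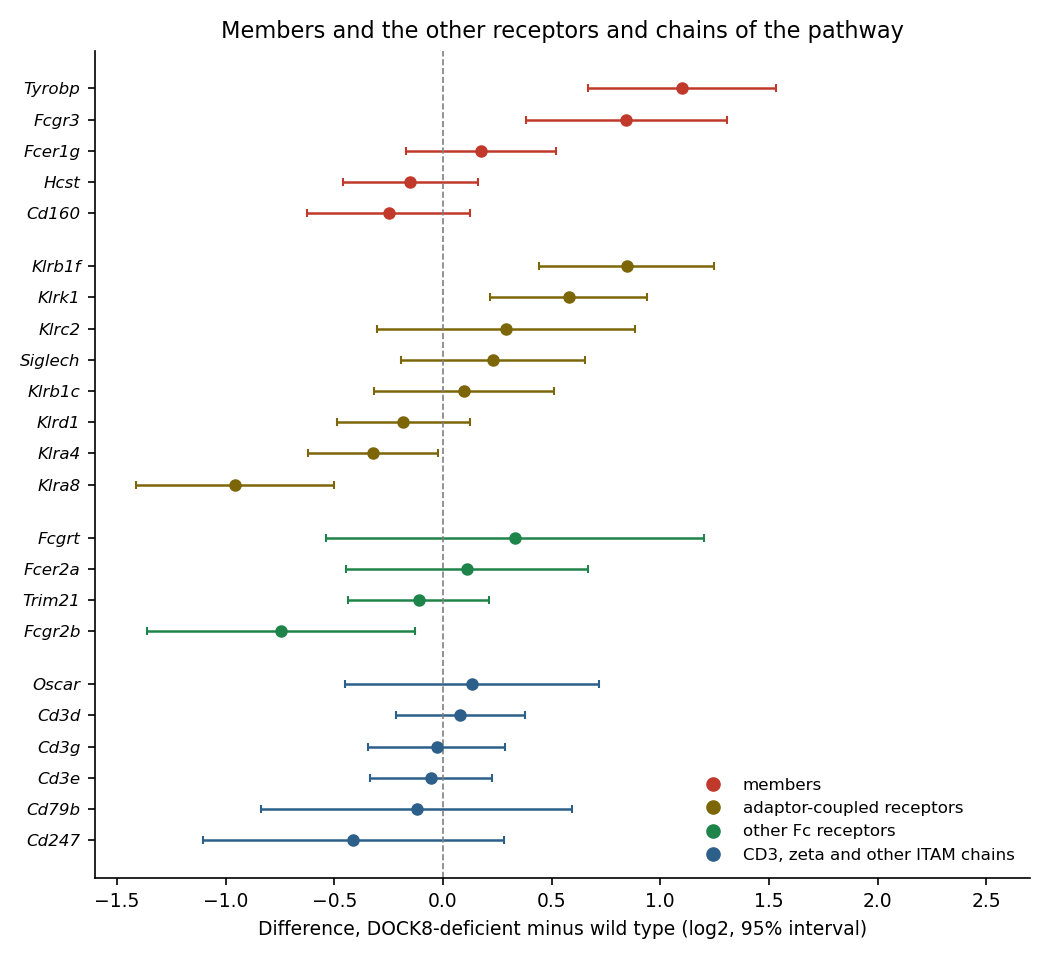
Difference between DOCK8-deficient and wild type samples (x axis, log2, with 95% limma interval) for the 5 tested members, 8 adaptor-coupled receptors, 4 other Fc receptors and 6 ITAM-bearing or related chains. Tyrobp, Fcgr3, Klrb1f and Klrk1 have intervals above 0, Klra8, Klra4 and Fcgr2b have intervals below 0, and none passes after adjustment over all probes.

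Fc receptors that do without the gamma chain lay around 0. Of 8 listed, 4 were tested and 0 passed in limma, with 1 unadjusted p under 0.05 and a median difference of -0.00. Fcgr2b, the inhibitory IgG receptor FcγRIIB, read 5.88, 5.26 and 5.62 in the DOCK8-deficient samples and 5.77, 6.67 and 6.56 in wild type, so the groups overlapped. Its difference was -0.74 ± 0.27 SE (adjusted p = 0.409), and its other tested probes, both detected on 3 arrays, read -0.44 and -0.06. Fcgrt, the neonatal Fc receptor, differed by 0.33 (adjusted p = 0.821).

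For the ITAM chains of the T cell receptor no difference passed. Of 7 listed chains and related genes, 6 were tested, 0 passed and 0 had an unadjusted p under 0.05 in limma, and the median difference was -0.04. Cd3d, part of the CD3 complex, differed by 0.08 (95% interval -0.21 to 0.38), and by -0.00 with median scaling. Cd247, the zeta chain of the T cell receptor complex, differed by -0.41 (-1.10 to 0.28) on its brightest probe and by -0.39 and -0.10 on the others.

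Further down the pathway 0 genes passed. Among 7 tested kinases of 13 listed, 6 were lower and 1 was higher, with a median of -0.13, and 0 had an unadjusted p under 0.05. The Src family kinase Fgr differed by -0.37 and Src by -0.25 (limma adjusted p = 0.623 and 0.736). Among scaffolds and effectors below SYK and DAP10, 24 of 28 were tested, 11 higher and 13 lower, with a median of -0.05 and 2 unadjusted p under 0.05. They were Sh3bp2, an adaptor that binds SYK and VAV proteins, at -0.49 ± 0.13 SE, and Vav2, a guanine nucleotide exchange factor, at 0.37 ± 0.14 SE (adjusted p = 0.255 and 0.431), both without overlap. Of the 24 genes, 1 was higher and 3 were lower without overlap, against 8.61% and 8.5% of all genes.

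Of 18 phosphatases, ubiquitin ligases and other inhibitors, 17 were tested, with a median of 0.02 and 3 unadjusted p under 0.05 in limma. Of the 17, 1 was higher and 4 were lower without overlap, against 8.61% and 8.5% of all genes. Cblb, a ubiquitin ligase that restrains NK and T cell activation, differed by 0.34 (adjusted p = 0.437) with 0.58 and 0.14 on its other probes, and Lax1, a membrane adaptor that dampens antigen receptor signals, by -0.50 (0.482). In the network of Cd160 and its ligand HVEM, 5 of 8 genes were tested with a median of 0.05 and 2 unadjusted p under 0.05. Of the 5, 2 were higher and 1 was lower without overlap, beside the same shares of all genes. HVEM itself, Tnfrsf14, was among the undetected. Btla, the inhibitory receptor that shares HVEM with CD160, differed by -0.48 ± 0.14 SE (adjusted p = 0.310), and the cytokine gene Lta by 0.50 ± 0.14 SE (0.268) on its brightest probe and by -0.34 on another. Ligands of NKG2D had 3 genes with a named probe of 9 listed, and 3 were detected on 0 arrays.

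Since Tyrobp, Fcer1g and Fcgr3 are also transcribed in myeloid cells and NK cells, markers of those cells were read on the same arrays. Of 27 myeloid and dendritic cell markers, 12 were tested, 9 higher and 3 lower in DOCK8-deficient samples, with a median difference of 0.32 and 0 calls in limma (3 unadjusted p under 0.05). Their summed background-corrected intensity ran from 5281 to 6700 in the DOCK8-deficient samples and from 5117 to 5834 in wild type, so the groups overlapped. This sum too is weighted to its brightest genes, Cst3 and Cebpb, and says little about dim markers such as Lyz2, C1qb and the class II genes. The median deviation of the 12 genes was 0.14, 0.43 and -0.20 in DOCK8-deficient samples 1, 2 and 3 and -0.18, -0.05 and -0.27 in wild type samples 1, 2 and 3, with DOCK8-deficient sample 3 within the wild type range. Mpeg1, a pore-forming protein of macrophages, differed by 0.76 ± 0.23 SE (adjusted p = 0.315) without overlap. Fcgr2b, also on this list and detected on 5 arrays, lay on the other side of 0, at -0.74 with overlap (limma adjusted p = 0.409). Lyz2 differed by 0.70 (0.18 on another probe), Lyz1 by 0.68 and C1qb, detected on 3 arrays, by 0.63. The groups overlapped for each (limma adjusted p from 0.447 to 0.565). The remaining higher markers, Cd74, H2-Ab1, H2-Aa, Ctss and Cst3, were detected on all 6 arrays and differed by 0.17 to 0.36, with overlap. Other tested probes read 0.26 for Cd74 and 0.07 and -0.09 for H2-Ab1. The other lower markers were Cebpb at -0.17 and Csf1r, detected on 3 arrays, at -0.16. Lyz2, Lyz1, C1qb, Cd74, H2-Ab1, H2-Aa, Ctss, Cst3, Cebpb and Csf1r are named after their values were seen. Detected on 0 arrays were 10 of the markers, including Spi1, Cd14, Cybb, Itgam and C1qa. DOCK8-deficient sample 3, highest for Tyrobp and Fcgr3, had the lowest myeloid sum of its group, 5281. That is a reading of 1 array, and its bearing on Tyrobp and Fcgr3 was not tested.

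Of 16 markers of conventional NK cells and ILC1, 8 were tested, 6 higher and 2 lower, with a median of 0.20 and 0 calls in limma (5 unadjusted p under 0.05). Of the 8, 3 were higher and 2 were lower without overlap, against 8.61% and 8.5% of all genes. The sum of the 8 markers ran from 37236 to 44603 in DOCK8-deficient samples and from 34164 to 35392 in wild type, without overlap. This linear sum is weighted to its brightest genes, Nkg7, Klre1 and Prf1, which NKT cells use too. The median deviation of the 8 genes from their own means over the 6 arrays, which weights genes equally, was -0.10, 0.14 and 0.31 in DOCK8-deficient samples 1, 2 and 3 and -0.06, -0.11 and -0.16 in wild type samples 1, 2 and 3, and by this measure the groups overlapped. Klre1, a lectin-like NK receptor, read 13.56, 13.53 and 13.64 against 12.67, 13.11 and 12.79 (difference 0.72 ± 0.15 SE, adjusted p = 0.148). Klra8 and Klra4, also on this list, were lower by the values given above. Irf8 differed by 0.42 ± 0.16 SE without overlap (limma adjusted p = 0.447), and is named after its value was seen. Itga2, the integrin chain CD49b used to recognise NK cells, was 8.16 ± 0.45 against 7.18 ± 0.20 (SD, n = 3 each), a difference of 0.98 ± 0.24 SE without overlap (adjusted p = 0.195), and is named after its value was seen. Eomes, a transcription factor of conventional NK cells, and the receptor gene Klrg1 were detected on 0 arrays, as was Ncr1 among the members. The part of myeloid or NK cells in the values of Tyrobp and Fcgr3 was not tested beyond these readings.

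**Figure D4:**
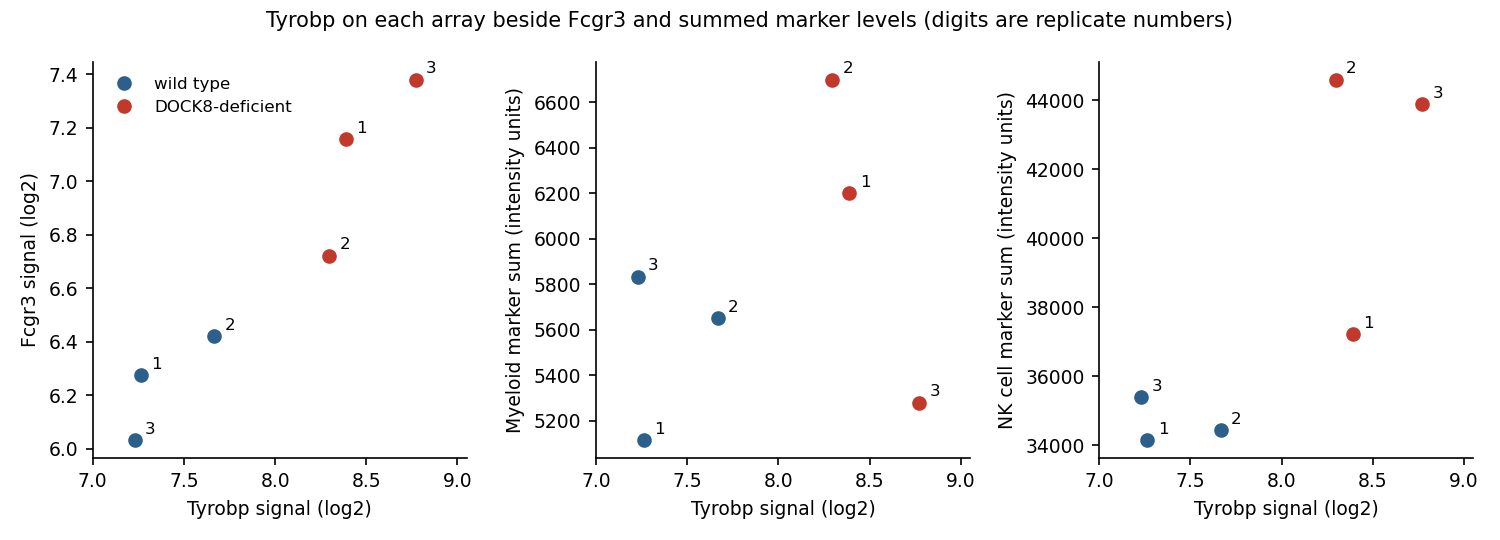
Tyrobp signal (x axes, log2) on each of the 6 arrays against Fcgr3 signal (log2) and against the summed background-corrected intensity of tested myeloid and NK cell markers; digits are replicate numbers. DOCK8-deficient sample 3 is highest for Tyrobp and Fcgr3 and lowest in its group for the myeloid sum, which is weighted to Cst3 and Cebpb. The NK cell sum, in which a few bright genes weigh most, is higher in all 3 DOCK8-deficient samples. The median deviation of the same NK cell genes overlaps between the groups. Whether either sum bears on Tyrobp was not tested.

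The neutrophil genes S100a8 and S100a9 split the arrays across the groups. S100a8 read 4.68, 8.80 and 5.39 in DOCK8-deficient samples 1, 2 and 3 and 9.07, 4.72 and 8.95 in wild type samples 1, 2 and 3, and S100a9 was high on the same 3 arrays. Tyrobp read 8.39 and 8.77 in the DOCK8-deficient samples and 7.67 in the wild type sample where neither was detected, and 8.30 against 7.26 and 7.23 where both were. Each subset holds only 1 or 2 samples a group, too few to decide whether neutrophils have a part in the Tyrobp values, which was not tested. The other 13 of 15 neutrophil, mast cell and basophil markers with a named probe were not tested, 9 of them detected on 0 arrays. B cell and gamma-delta T cell markers had 2 tested genes each, with medians of -0.07 and -0.04. Cd79b and Ebf1 of the former differed by -0.12 and -0.02, and Trgv4 and Blk of the latter by -0.08 and 0.00 (limma adjusted p from 0.907 to 1), with signs that turned when single samples were left out.

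**Figure D5:**
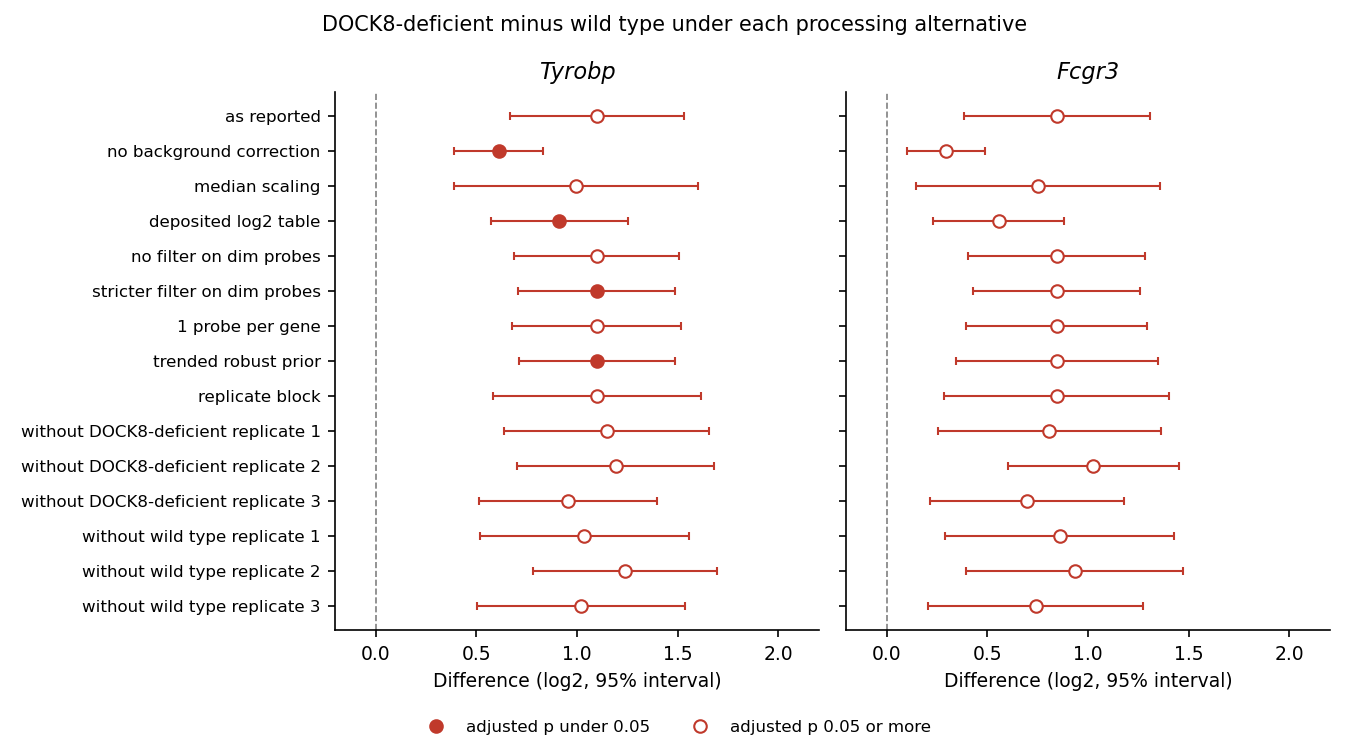
Difference between groups (x axes, log2, with 95% limma interval) for Tyrobp and Fcgr3 as reported and under each of 14 processing alternatives; filled points have an adjusted p under 0.05. All points lie above 0, 4 of the Tyrobp alternatives are filled, and none of the Fcgr3 points is.

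The alternatives moved the size of the Tyrobp difference between 0.61 and 1.24, and its adjusted p between 0.00372 and 0.338. For Fcgr3 the difference lay between 0.30 and 1.03. The differences of Fcer1g ranged from 0.10 to 0.27, those of Hcst from -0.22 to -0.11 and those of Cd160 from -0.36 to -0.14, each with adjusted p of 0.458 or more.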

How the data were processed

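RNA was labelled with biotin and hybridised to Illumina mouse arrays, per the labels' protocols. The deposited scanner table holds a linear intensity per probe, without background subtraction as judged from its values, and a detection p-value beside each, per the file headers. A further deposited table holds log2 values, and how the authors normalised them is not given in the labels or headers. Intensities were background corrected from the detection p-values, quantile normalised with an offset of 16 and put on a log2 scale (neqc, limma 3.58.1, R 4.3.3). Gene symbols came from the platform annotation. Probes with 1 symbol (34885 of 45281) and a detection p under 0.05 on 3 or more arrays were tested, 14559 in all, with lmFit and eBayes, 2-sided, without a block, threshold 0.05 after Benjamini-Hochberg adjustment. The fit was tested on simulated data, where a recovery rate was required only for changes larger than those of Tyrobp and Fcgr3. For lists, the brightest tested probe of a gene was used (9060 genes).

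The members and the 14 other gene lists were chosen with earlier results of these data known, so none of their counts is independent evidence. Of the list entries, 29 had no named probe. The naming rule took all members, from each list up to 4 genes past the test or else the 2 of smallest p, and the 5 probes most like Tyrobp and Fcer1g. As alternatives, the background step was dropped, arrays were scaled to their medians, the authors' log2 values were taken, the filter was removed or made stricter (detection p under 0.01 on all 6 arrays), 1 probe per gene was kept, the prior was trended and robust, the replicate number was a block, and each sample was left out. The files name no slide or scan, so batches could not be examined. Precision is limited by there being 3 arrays a group. Promoter sequences are from RefSeq (GRCm38.p6).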

Additional observations from a re-analysis of the deposited data

How the results depend on the processing

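Tyrobp was past the threshold without background correction (0.61), in the authors' table (0.91, adjusted p = 0.0203), with the stricter filter on dim probes (1.1, adjusted p = 0.0316) and with a trended robust prior (1.1, 0.00372), so that the count of members called was 1 in each of these 4 settings and 0 in the others; the cause was not tested. All 5 tested members kept their sign in all 14 alternatives. With single samples left out, Tyrobp ranged from 0.96 to 1.24 (adjusted p from 0.121 to 0.338) and Fcgr3 from 0.70 to 1.03.

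The count of all probes called, 31, became 155 without background correction, 62 with median scaling, 112 in the deposited table, 9 without the filter, 62 with the stricter filter and 191 with the trended robust prior, and it was 33 with 1 probe per gene. Leaving out 1 sample gave 1 to 16 calls: 16, 6 and 4 without DOCK8-deficient samples 1, 2 and 3, and 2, 5 and 1 without wild type samples 1, 2 and 3. With the replicate number as a block it was 0, and Tyrobp had an adjusted p of 0.265. Deviations from the group mean correlated at -0.25 to 0.03 between samples of the same number, and at -0.22 to 0.33 between samples of different number. With 3 arrays a group these values cannot show whether the numbers pair the samples.

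Of the other named genes, Cd3d turned to -0.0036 with median scaling. With single samples left out, Cd79b ran from -0.37 to 0.19, Ebf1 from -0.18 to 0.17, Trgv4 from -0.17 to 0.035 and Blk from -0.69 to 0.61. Among genes that kept their sign, leaving out single samples moved Fcgrt between 0.07 and 0.78, Cd247 between -0.72 and -0.16, Fgr between -0.49 and -0.14, Src between -0.38 and -0.03, Cd5 between 0.58 and 1.46, S100a8 between -2.72 and -0.49 and S100a9 between -1.78 and -0.40. Klra8, Klrb1f and Klre1 passed without background correction, in the deposited table and with the trended robust prior, Sh3bp2 without background correction and S100a8 with median scaling. Probes near background, Fcgr3 and Fcgr2b among them, are those whose size depends most on the background step.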
